A study of Trichoderma reesei with 15 samples.

Results

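The genes described here are the 100 transcripts whose level varied least over all 15 RNA sequencing libraries of a study of protein phosphatase deletions in the cellulase-producing fungus Trichoderma reesei. Each count was divided by the total of its library and scaled to a library of 1000000 counts (CPM). Of the 10879 genes listed, 3663 had a mean of 50 to 1000 CPM, and within this window the 100 genes with the lowest coefficient of variation (CV, the standard deviation over 15 libraries divided by the mean) were taken, which is 2.73% of the window. The levels in all 15 libraries therefore chose the members, so their small spread is a description and is not tested. They are candidates for reference genes for growth on cellulose in darkness.

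A reference gene is a transcript whose level is taken as constant, so that others can be expressed relative to it in quantitative PCR or on a blot. In T. reesei the genes for actin, a translation elongation factor and the small GTPase SAR1 are commonly used in this way. Such use rests on the reference keeping its level in every strain compared, and a level in sequencing data is itself relative to whatever quantity the libraries are scaled by. The table pairs its systematic identifiers with no gene names. Of these identifiers, 0 matched the RefSeq gene table (assembly v2.0, 9116 genes), so none of the common reference genes could be located among them and no member is given a function or a sequence.

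All strains carried a deletion of mus53, a gene of DNA end joining whose loss favours targeted integration, and grew for 96 h at 28 °C on cellulose as carbon source in constant darkness. The parent QM6aΔmus53 gave 2 libraries tagged DD1 and 2 tagged DD3, the additional deletion of pp2A gave 4 and that of pph5 gave 3 libraries tagged DD1, and that of pph5-2 gave 4 tagged DD3. The study addresses protein phosphatases in cellulase regulation, and PP2A and PP5 are families of serine/threonine phosphatases. No source used here gives the meaning of the tags or says that replicates were separate cultures, so a p-value reflects the spread between libraries, which may be technical. The type label of pp2A replicate 1 reads WT, and the pph5-2 libraries name the pph5 strain as source and cell line; the titles set the groups.

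Library totals ranged from 6026511 to 13572121 counts. For each deletion, 1 gene had at most 4 counts in every library of that strain and at least 84 in every other library. TrG1101W had 0, 0, 0 and 4 counts in the pp2A libraries and at least 197 elsewhere. TrE1020W had 0 in the 3 pph5 libraries and at least 973 elsewhere, and TrE0027W had 0 in the 4 pph5-2 libraries. The 100 genes with the highest mean CPM over all 15 libraries were summed as a fixed set. They held 18.2 ± 0.578% of the counts in pp2A (SD, n = 4) and 24.5 ± 0.703% in the DD1 parent (SD, n = 2). The genes most abundant in each library itself were not summed. These are bulk libraries, in which fewer cells of a type and less RNA per cell cannot be told apart.

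The members spanned most of the window. Their mean levels ran from 54.5 to 888 CPM with a median of 158, against a median of 120 over the window. CVs ran from 2.88% to 7.39% with a median of 6.52%, while the window had a median of 19.2% and reached 199%. The highest library exceeded the lowest by 1.11-fold to 1.39-fold for individual members, with a median of 1.25-fold. A ratio below 1.5 held for all 100 members and for 17.3% of the window, and a ratio below 2 held for 54.1% of the window.

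**Figure D1:**
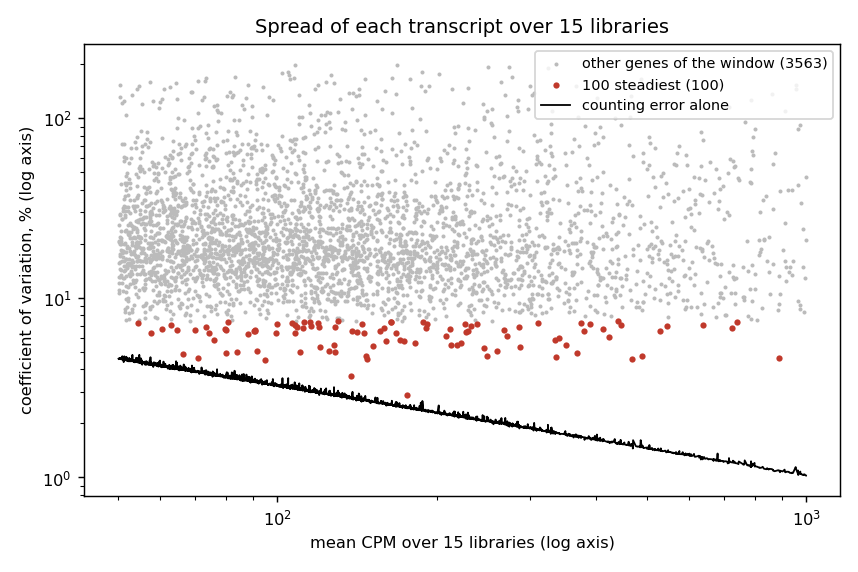
Coefficient of variation over 15 libraries (vertical, log axis) against mean CPM (horizontal, log axis) for the 3663 genes of the window, with the 100 members in red and the value that counting error alone would give as a line. The members form the lower edge at every level, from 54.5 to 888 CPM, and all lie above the line.

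Counting error took part of the spread that was left. With lowest counts of 315 to 5257 in a library, counting alone would give a CV of 1.10% to 4.43% for individual members. The observed CV exceeded that value by 1.17-fold to 6.11-fold with a median of 2.39-fold, against a median of 6.95-fold in the window. For most members the spread went well beyond counting error, with a lower quartile of 1.84-fold. Depth limits how far members can be ranked among themselves where both values lie close, and more for weak members. Of the members, 24 had a mean below 100 CPM, as did 40.1% of the window, and 38 lay between 100 and 200 CPM, 32 between 200 and 500 CPM and 6 above.

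The steadiest transcript was TrA1885C, with 176 ± 5.05 CPM (SD, n = 15), a CV of 2.88% and a listed gene length of 1254 bases. It stood at 174 and 173 CPM in the DD1 parent, 165, 171, 181 and 169 in pp2A, 181, 174 and 181 in pph5, 182 and 180 in the DD3 parent, and 175, 177, 177 and 173 in pph5-2. The lowest library belonged to pp2A and the highest to the DD3 parent, and the ranges of the 3 deletion groups overlapped each other, pph5 lying just above its parent and pph5-2 below its own. Its counts of 1050 to 2398 would by themselves give a CV of 2.46%, so little more than counting error was seen.

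TrD0790W followed with a CV of 3.69% around 138 CPM. It had 145 and 141 CPM in the DD1 parent, 135, 137, 127 and 132 in pp2A, 130, 144 and 137 in pph5, 140 and 143 in the DD3 parent, and 138, 140, 139 and 141 in pph5-2. The pp2A libraries all lay below those of both parents and of pph5-2, and overlapped those of pph5.

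TrB0291W, a short gene of 357 bases, had a CV of 4.52% around 94.9 CPM. Its level was 91.5 and 93.7 CPM in the DD1 parent, 94.5, 99.1, 98.5 and 101 in pp2A, 99.8, 86.6 and 91.9 in pph5, 92.9 and 102 in the DD3 parent, and 96.2, 91.7, 92.2 and 92.0 in pph5-2. Lowest and highest library came from pph5 and the DD3 parent, and pp2A lay above the DD1 parent without overlap.

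TrE0978C was the strongest of the 5 steadiest, with 468 CPM and a CV of 4.58%. It was measured at 448 and 490 CPM in the DD1 parent, 476, 466, 459 and 472 in pp2A, 481, 444 and 447 in pph5, 424 and 454 in the DD3 parent, and 486, 484, 503 and 482 in pph5-2. The pph5-2 libraries lay above both libraries of their parent, and the DD1 groups overlapped.

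TrA1692C completed the 5 with a CV of 4.59% around 148 CPM. It showed 133 and 152 CPM in the DD1 parent, 146, 147, 141 and 153 in pp2A, 148, 152 and 149 in pph5, 151 and 151 in the DD3 parent, and 133, 151, 150 and 155 in pph5-2. A single library in each of 2 groups, replicate 1 of the DD1 parent and replicate 1 of pph5-2, stood below the rest, and all deletion groups overlapped.

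**Figure D2:**
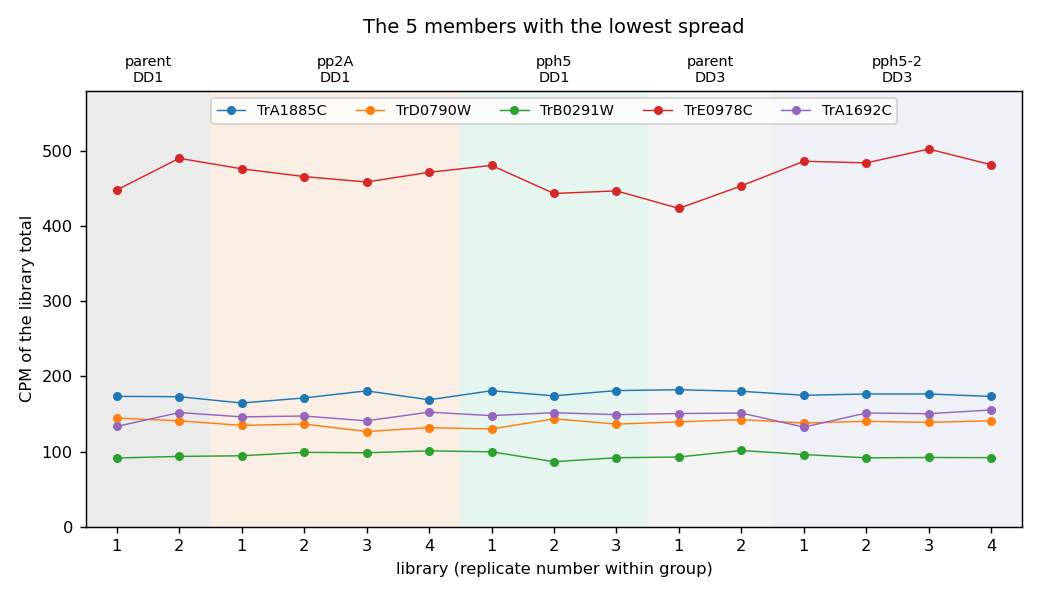
CPM of the library total (vertical) of the 5 members with the lowest CV in each of the 15 libraries (horizontal, in their groups), each point 1 library, with lines that only join the points of a gene. TrE0978C runs between 424 and 503 CPM, TrA1885C between 165 and 182, and TrB0291W between 86.6 and 102.

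The strongest members were TrF0434W, with a mean of 888 CPM between 795 and 964, and TrB0296C, with 741 CPM between 661 and 836. The weakest were TrA2067C, at 54.5 CPM between 49.8 and 61.0, and TrD0394C, at 57.6 CPM between 53.1 and 65.6. The highest and lowest means of the list thus differed widely, while each gene stayed within a narrow band in CPM of the total. The window ends at 1000 CPM, so the list holds no candidate at the level of transcripts stronger than that.

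The limit of 100 cut through a continuous series. Just inside lay TrE0132C with a CV of 7.36%, TrG0331C with 7.39% and TrA0565C with 7.39%, and just outside lay TrA0948C with 7.40%, TrC0529W with 7.41% and TrG0308W with 7.44%. Membership near the limit therefore says little about a gene.

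The members were somewhat shorter than their neighbours in level. Their median gene length was 1405.5 bases, against 1647 in the window and 1113 over all genes, with TrD0108C (231 bases) the shortest and TrA0662C (5139 bases) the longest. Lengths are given by the table and are multiples of 3 for 98 of the members. No source used here says whether they are coding lengths. Per kilobase of this length the members had a median of 117 CPM and a range of 27.0 to 1742, against a median of 74.8 in the window.

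By identifier the members were spread over all 7 letters that the table uses. The rate was 3.26 members per 100 window genes for letter A and 3.66 for E, and 1.92 for F and 1.79 for G. The final letter was C for 60 members and for 50.8% of the window. No source used here explains the letters and numbers.

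In 3 cases both of 2 genes with directly neighbouring numbers were members. TrC0585C and TrC0586W had 156 and 161 CPM, TrD0733W and TrD0734W had 147 and 90.5 CPM, and TrD1106C and TrD1107C had 112 and 84.0 CPM. No source used here says whether counting used strand, so reads of neighbours that overlap may have been assigned to either gene.

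No single group held the extremes of the members. The lowest library of a member was a pp2A library for 22, a pph5 library for 26, a pph5-2 library for 25, and a parent library for 17 (DD1) and 10 (DD3). The highest was in pp2A for 28 members, in pph5 for 23 and in pph5-2 for 17. In the window the extremes were unevenly placed, with the highest library in pp2A for 46.7% and the lowest in pph5 for 45.9% of the genes. Among single libraries, pph5 replicate 2, also the library with the lowest total, was the lowest for 19 members.

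The summed members took nearly the same share of every library. It lay between 2.07% and 2.19% of all counts, with a mean of 2.13 ± 0.0408% (SD, n = 15). The geometric mean of the 100 members, as a factor with a mean of 1 over libraries, ranged from 0.974 in pph5 replicate 2 to 1.02 in pp2A replicate 4. This nearly constant share follows from choosing the members on library totals.

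The parental libraries gave a view of the spread without any phosphatase deletion. Between both DD1 parent libraries, members differed by a median of 1.09-fold and at most 1.31-fold, with 2 of 100 over 1.25-fold against 64.1% of the window. Between both DD3 parent libraries the median was 1.05-fold and the maximum 1.25-fold, with 1 member over the same limit against 34.9% of the window. These libraries were among those that chose the members.

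Libraries that take no part in the choice give a measure that is independent of it. It applies to newly chosen lists, which share only part of the members, and not to the members themselves. When 100 genes were chosen by the same rule on the 9 DD1 libraries alone, of which 60 were members, their median CV in the 6 DD3 libraries was 6.37% (range 1.14% to 14.96%), against 12.5% for the genes of that window. Of these 100, 92 lay below the median of the window, and all 100 kept their mean level within 1.25-fold between both sets, as did 76.1% of the window. Of them, 19 were also among the 100 steadiest of the DD3 libraries themselves.

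The reverse choice gave a similar picture with a wider spread. Genes chosen on the 6 DD3 libraries, 30 of them members, had a median CV of 11.2% (range 3.32% to 36.5%) in the 9 DD1 libraries, against 21.5% in the window, and 95 of 100 lay below the window's median. Mean levels stayed within 1.25-fold for 97 of them, against 78.7% of the window.

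Leaving out a whole genotype from the choice showed where steadiness carried over least. Genes chosen without pph5 had a median CV of 7.15% in the 3 pph5 libraries against 20.8% in the window, and all 100 kept their mean within 1.25-fold against 57.9% of the window. Genes chosen without pph5-2 had 5.65% in the 4 pph5-2 libraries against 10.2%. Genes chosen without both parent groups had 7.31% in the 4 parent libraries against 15.6%.

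For pp2A the 100 genes chosen on the other 11 libraries held 47 of the members. In the 4 pp2A libraries their median CV was 4.71% against 5.95% in the window. Their mean level moved by a median of 0.12 on the log2 scale towards higher values, between -0.94 and 0.54, and 87 stayed within 1.25-fold against 51.1% of the window. The window as a whole moved by 0.16 on the same scale. A choice that had not seen pp2A thus included some genes that differed in level in that strain.

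Which genes were the steadiest depended on how the libraries were scaled. TMM (trimmed mean of M-values) sets the scale so that the bulk of genes keeps its level, whereas library totals set the sum of all counts equal. TMM factors lay between 1.13 and 1.15 in the 4 pp2A libraries and between 0.802 (pph5 replicate 2) and 1.06 in the other 11 libraries, a 1.43-fold range. Between pp2A and the DD1 parent the TMM scale differed by 0.31 on the log2 scale and the scale set by the members by 0.02.

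**Figure D3:**
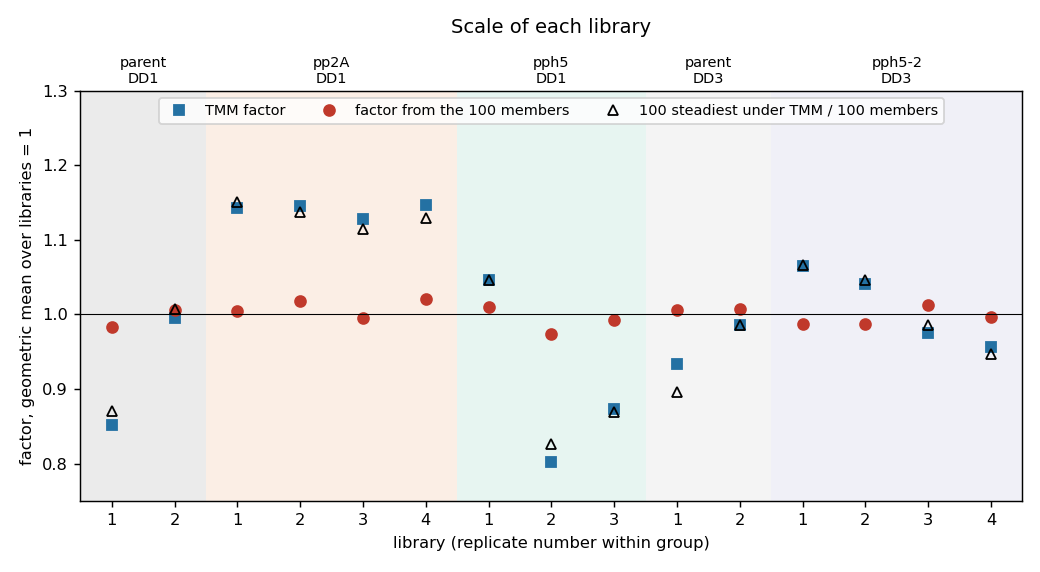
Scale of each of the 15 libraries (horizontal, in their groups), as a factor with a geometric mean of 1 over libraries (vertical): the TMM factor (squares), the factor given by the geometric mean of the 100 members in CPM of the total (circles), and the ratio of the geometric mean of the 100 steadiest genes under TMM to that of the members (triangles). The circles stay between 0.974 and 1.02, while squares and triangles are high in pp2A and low in pph5 replicates 2 and 3 and in replicate 1 of the DD1 parent.

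Under TMM none of the 100 members remained among the 100 genes of the window with the lowest CV, and under the size factors of DESeq2 the number was also 0. With upper-quartile scaling 25 members remained. The members' median CV was 11.9% under TMM (range 6.78% to 17.6%), 12.1% under DESeq2 size factors and 8.94% with the upper quartile, against window medians of 16.9%, 16.9% and 17.2%. Their ranks by CV under TMM ran from 163 to 1906 with a median of 1108.5 among 3663 genes. TrA1885C, the first by library totals, had a CV of 12.5% and the rank 1209 under TMM.

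The 100 steadiest genes under TMM formed a list without any member. Their median CV was 5.52% under TMM and 12.1% under library totals, and their median mean level was 190 CPM. Relative to the members, their geometric mean ranged from 1.15 in pp2A replicate 1 down to 0.826 in pph5 replicate 2, a 1.39-fold range. The pp2A libraries all lay between 1.11 and 1.15, and 0.870 and 1.01 were found in the DD1 parent. In pph5 it was 1.05, 0.826 and 0.869, so libraries of 1 group differed too, and the range just given is one between single libraries. Choices on part of the libraries also carried over under TMM. Median CVs in the left-out libraries were 5.93% (window 11.6%) when chosen on DD1 and 8.73% (18.0%) when chosen on DD3. Without pp2A they were 4.06% (5.92%), and without pph5 8.18% (15.3%). Carry-over was thus seen on both scales and does not favour the list of either.

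**Figure D4:**
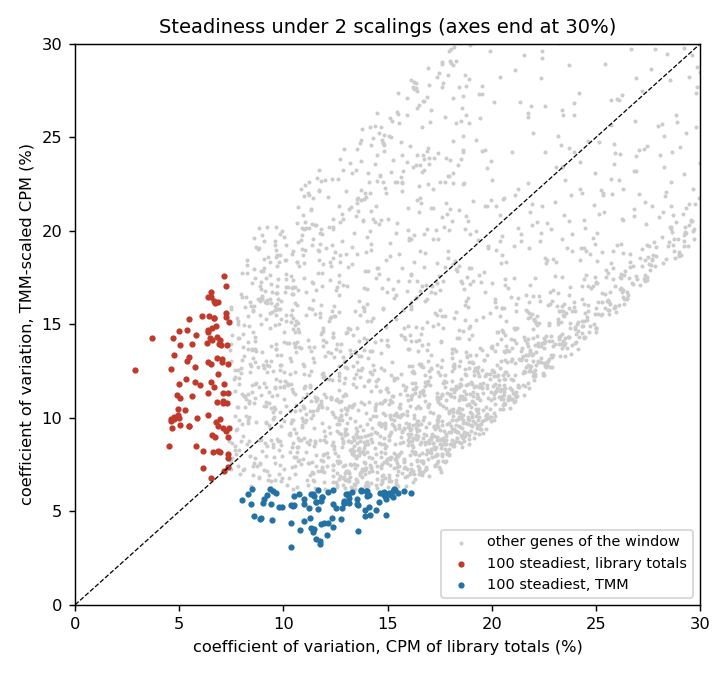
Coefficient of variation over 15 libraries in CPM of the library total (horizontal) and in TMM-scaled CPM (vertical) for the genes of the window, with the 100 members in red and the 100 steadiest genes under TMM in blue; the dashed line marks equal values and the axes end at 30%. Most members lie above the line, with a median of 11.9% under TMM, and the blue genes lie below it, with a median of 12.1% under library totals.

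A measure that needs no scale is the SD over libraries of the log2 ratio of 2 genes, since any factor of a library cancels. Over the 4950 pairs of members it had a median of 0.12 (range 0.05 to 0.19), against 0.43 over pairs of window genes with a count in every library. Of those pairs, 1.55% lay below the median pair of members. Pairs within the list from TMM had a median of 0.10, and pairs of a member with a gene of that list 0.19. Low ratios within a list follow from choosing its genes for a low CV on 1 scale, so these values describe the choice and support nothing further.

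Ranked by the mean of this SD against all window genes, 4 members stood in the first 100 and their median rank was 637.5 (from 27 to 1418) of 3656. The list from TMM had 70 genes in the first 100 and a median rank of 62. TMM holds the bulk of genes level, so a gene chosen as steady under TMM also keeps its ratio to that bulk. These ranks thus follow in part from how each list was chosen, and they favour neither list.

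The tightest pair of members was TrB1226C and TrE0084C, with an SD of the log2 ratio of 0.05. The ratio of the first to the second was 0.720 and 0.717 in the DD1 parent, 0.707, 0.682, 0.698 and 0.752 in pp2A, 0.691, 0.734 and 0.730 in pph5, 0.679 and 0.700 in the DD3 parent, and 0.705, 0.667, 0.674 and 0.667 in pph5-2. Each deletion group overlapped its parent. The CVs of the genes themselves were 7.03% and 7.04%, near the limit of the list.

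The loosest pair was TrC0417W and TrA1285W, with an SD of 0.19. Its ratio was 3.13 and 3.68 in the DD1 parent, 3.75, 3.15, 3.22 and 3.44 in pp2A, 3.91, 2.94 and 2.67 in pph5, 3.04 and 3.52 in the DD3 parent, and 3.68, 4.26, 3.89 and 4.03 in pph5-2. All pph5-2 libraries were above both libraries of the DD3 parent, and the DD1 groups overlapped. Across the 15 libraries the correlation of log2 CPM between 2 members ranged from -0.88 to 0.88 with a median of 0.03, as a description of libraries that share their totals.

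The members with the lowest mean SD of log2 ratios to all other members were TrA1885C, TrB0291W and TrF0434W. Their geometric mean, the form in which several reference genes are usually combined, had a highest-to-lowest ratio of 1.11 over libraries in CPM of the total and of 1.40 under TMM. For the geometric mean of all 100 members the ratios were 1.05 and 1.38. Averaging more members narrowed the spread on the scale that chose them and hardly changed it on the other scale.

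The scale of a library moved with the listed length of genes. The window was divided at 1071, 1647 and 2478 bases into 4 classes of 910 to 916 genes. In pp2A the median log2 deviation of a gene from its mean over libraries was 0.03 in the shortest class and 0.11, 0.18 and 0.24 in the following ones, as means of 4 libraries. In pph5 replicate 2 the 4 values were -0.13, -0.23, -0.33 and -0.43, and in replicate 1 of the DD1 parent -0.14, -0.17, -0.24 and -0.31.

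In pph5 replicate 3 they were -0.06, -0.14, -0.21 and -0.30. Other libraries of these groups did not share the slope. In pph5 replicate 1 the values were -0.01, 0.04, 0.05 and 0.09, and in DD1 parent replicate 2 they were 0.05, 0.01, 0.02 and 0.03. The slope thus differed between libraries of 1 group as well as between groups. Its part in the steadiness of the members was not tested.

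**Figure D5:**
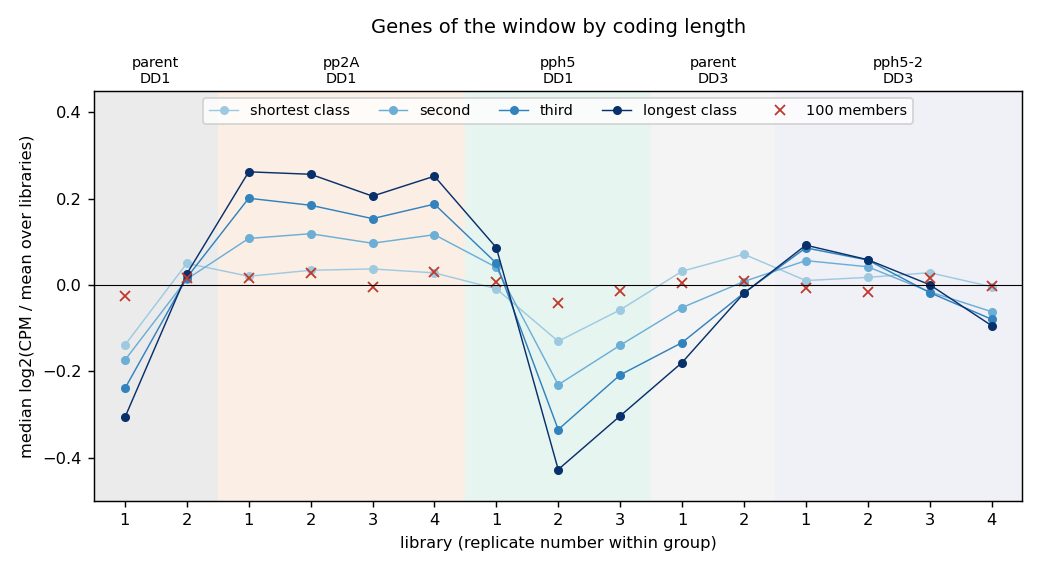
Median over genes of the log2 ratio of CPM to the gene's mean over 15 libraries (vertical) for 4 classes of the window by listed gene length, from light (shortest) to dark (longest), and for the 100 members (crosses), in each library (horizontal, in their groups). The classes fan out with length, upwards in pp2A to a group mean of 0.24 and downwards in pph5 replicate 2 to -0.43, while the crosses stay near 0.

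Members were found in all classes of length, with 31, 29, 21 and 19 from the shortest to the longest. The steadiest genes under TMM were concentrated among long genes, with 5, 20, 27 and 48. Under library totals the window's median CV was 18.7%, 19.7%, 20.01% and 19.0% in these classes, and under TMM it was 19.6%, 18.7%, 16.2% and 13.9%.

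Deletion strains were compared with the parent of the same tag by edgeR's quasi-likelihood test on the counts with TMM scaling, fitted over all 8912 genes that passed a filter on low counts, which all 100 members passed. Genes under a Benjamini-Hochberg adjusted p of 0.05 were called. Because the members were chosen on these same libraries, their calls are given beside the share called over all genes, and nothing is read from that comparison. Between pp2A and the DD1 parent 33 members were called, all lower in pp2A, where 18.7% of all genes were called, 10.7% lower and 7.94% higher. The members' median log2 fold change was -0.29 (range -0.47 to -0.10), against -0.03 over all genes.

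TrA1151W and TrD0733W had the lowest values. In TMM-scaled CPM, TrA1151W stood at 574 and 412 in the DD1 parent and at 367, 338, 363 and 351 in pp2A. Its log2 fold change was -0.47 ± 0.13 (SE) with an edgeR adjusted p of 0.0227. The groups did not overlap on this scale, and replicate 1 of the parent lay far above replicate 2. In CPM of the total it had 489 and 410 in the parent and 420, 388, 410 and 402 in pp2A, where the groups overlapped. The log2 fold change was -0.21 and no longer called without replicate 1 of the parent, and -0.69 without replicate 2. It was also not called without pp2A replicate 2 (-0.45) or 4 (-0.47).

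TrD0733W stood at 181 and 162 TMM-scaled CPM in the DD1 parent and at 132, 120, 123 and 120 in pp2A, a log2 fold change of -0.47 ± 0.10 (SE) with an edgeR adjusted p of 0.00799. In CPM of the total the same gene had 154 and 161 in the parent and 151, 137, 139 and 138 in pp2A. The groups did not overlap on either scale, and pp2A replicate 1 lay closest to the parent. Under TMM without replicate 1 of the parent the log2 fold change was -0.38 and not called. With library totals as the scale the gene was not called.

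With library totals as the scale the median log2 fold change of the members between pp2A and the DD1 parent was 0.03, edgeR called 0 members with 2 at an unadjusted p under 0.05, and the split over all genes turned from 708 higher and 957 lower under TMM to 1401 higher and 510 lower (21.4% called, 15.7% higher and 5.72% lower). Scaled by the members themselves the test called 0 of them, with 1 at an unadjusted p under 0.05 (21% of all genes called, 15.1% higher and 5.85% lower). That scale sets the geometric mean of the members equal in all libraries, and library totals are the scale that chose them. Few calls on both scales thus follow from the choice, and nothing is read from them. The members' median log2 fold change in pp2A was -0.29 under TMM and 0.03 under library totals, so its direction depends on the scale. When 1 library was left out, the number of members called under TMM fell in some fits and rose in others. The number called over all genes moved as well, so nothing about the members is read from these counts.

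The number of members whose groups did not overlap also depended on the scale. On CPM of the total, all 4 pp2A libraries lay above both DD1 parent libraries for 15 members and below for 9, against 42.7% and 11.1% of the window. On TMM-scaled CPM the numbers were 0 and 84, against 21.1% and 28.5%. Between pp2A and pph5, all libraries of pp2A lay above those of pph5 for 13 members and below for 3 on CPM of the total, against 41.2% and 11.1% of the window. On TMM-scaled CPM these numbers were 0 and 71, against 20.5% and 24.5%.

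In the other comparisons the members' counts on CPM of the total were mostly above the share of the window. Between the parents, DD3 lay above DD1 for 18 members and below for 14, against 5.27% and 5.79% of the window, and pph5 lay above its parent for 11 and below for 9, against 3.33% and 3.49%. For pph5-2 against its parent the numbers were 10 and 15, against 13.4% and 6.5%. On TMM-scaled CPM they were 6 and 11 between the parents (5.32% and 9.56%), 1 and 1 for pph5 (3.88% and 5.95%), and 1 and 19 for pph5-2 (11.3% and 9.94%). The choice of members used all these libraries, so nothing is read from these counts.

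Set directly against pph5, in a comparison that shares the pp2A libraries with the preceding one, pp2A had 64 members called lower and 0 higher under TMM, where edgeR called 33.8% of all genes, 19.6% lower and 14.1% higher. The median log2 fold change was -0.32 (range -0.52 to -0.11). Under library totals 1 member was called, as higher, where 40% of all genes were called, 29.5% higher and 10.5% lower. Scaled by the members, 1 was called, where 39.1% of all genes were called, 28.3% higher and 10.8% lower. Few calls on these scales follow from the choice of the members and from the scaling. Under TMM the number of members called fell in some fits without 1 library and rose in others. The share over all genes in these fits is not given here, so nothing about the members is read from them.

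TrE0308W and TrG0366W had the lowest values in that comparison. TrE0308W had 63.9, 73.7, 65.7 and 67.7 TMM-scaled CPM in pp2A and 82.8, 109 and 99.9 in pph5, a log2 fold change of -0.52 ± 0.10 (SE) with an edgeR adjusted p of 0.00364. TrG0366W had 81.3, 86.1, 84.5 and 89.2 in pp2A and 102, 143 and 120 in pph5, a log2 fold change of -0.51 ± 0.12 (SE) with an edgeR adjusted p of 0.00814. For both genes the groups did not overlap, and pph5 replicate 2, the library with the lowest TMM factor, was the highest.

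In CPM of the total TrE0308W had 73.0, 84.5, 74.1 and 77.7 in pp2A and 86.6, 87.1 and 87.2 in pph5. TrG0366W had 92.9, 98.6, 95.3 and 102 in pp2A and 107, 114 and 105 in pph5. Both remained lower in pp2A without overlap on this scale, by smaller distances, and neither was called.

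The remaining comparisons called 0 members. Between pph5 and the DD1 parent edgeR called 0.0112% of all genes, the members' median log2 fold change was 0.02 (range -0.17 to 0.22), and 0 members had an unadjusted p under 0.05. Between pph5-2 and the DD3 parent it also called 0.0112%, the median was -0.08 (range -0.27 to 0.09), and 0 members had an unadjusted p under 0.05. DESeq2 called 0 members in both.

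The parents of DD3 and DD1 were compared to see whether the tag itself moved the members. Of all genes 0% were called, the members' median log2 fold change was -0.05 (range -0.30 to 0.17), and 1 member had an unadjusted p under 0.05; DESeq2 called 0 members. The difference between the responses to the pph5-2 and pph5 deletions was called for 0 members and for 0.0224% of all genes, with 1 member at an unadjusted p under 0.05 and a lowest adjusted p of 0.886 by edgeR. Groups of 2 to 4 libraries leave wide intervals, so a member that was not called is not shown to be equal.

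The list from TMM was put through the same tests. Of its 100 genes, edgeR called 0 in each of the 5 comparisons under TMM, with 5 at an unadjusted p under 0.05 for pp2A against the DD1 parent, 5 for pp2A against pph5, 1 for pph5 against the DD1 parent and 0 in the other comparisons. Under library totals it called 14 higher in pp2A than in the DD1 parent, near the 15.7% called higher over all genes. It called 62 higher in pp2A than in pph5, against 29.5% over all genes. Each list had at most 1 gene called on the scale that chose it, and these counts do not show which scale is the right one.

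A compromise between scales was looked for after the values had been seen. Taking for each window gene the highest of its CVs under library totals, TMM, DESeq2 size factors and the upper quartile, the 100 lowest reached up to 9.86% and held 24 members and 16 genes of the list from TMM. The lowest value of all, 6.78%, belonged to a member, TrB0231W, a gene of 3957 bases with a mean of 529 CPM.

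TrB0231W had 477 and 526 CPM of the total in the DD1 parent, 582, 572, 535 and 590 in pp2A, 522, 502 and 491 in pph5, 479 and 525 in the DD3 parent, and 536, 552, 526 and 518 in pph5-2. On that scale pp2A lay above all other DD1 libraries. In TMM-scaled CPM it had 559 and 528 in the DD1 parent, 510, 500, 474 and 515 in pp2A, 499, 626 and 563 in pph5, 513 and 532 in the DD3 parent, and 503, 531, 540 and 542 in pph5-2, and there pp2A lay below the DD1 parent.

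Its log2 fold change between pp2A and the DD1 parent was -0.12 ± 0.09 (SE) under TMM with an edgeR adjusted p of 0.353, and 0.19 under library totals with an adjusted p of 0.145. Among the members TrA2056C followed with a highest CV of 7.22%, TrA0563C with 7.39%, TrC1066W with 7.54% and TrE0132C with 7.87%. Genes outside the list had values in between, the lowest of them 7.50%. These 5 members had ranks of 52, 85, 95, 39 and 98 by the rule, so the members most alike under all 4 scales were not those at the top of the list.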

How the data were processed

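RNA of mycelium was sequenced in 15 libraries of 5 groups. The authors deposited raw read counts per gene in 1 table with gene lengths, and 15 columns were matched to samples by their labels. Per the submitters' processing notes HISAT2 2.2.1 was used, in a role they do not state. For the counting settings, use of strand, genome build and annotation, no source used here gives an answer. Genes of near-identical sequence may share reads.

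Tests used edgeR 4.0.16 and R 4.3.3 (TMM, filterByExpr, robust quasi-likelihood fit with 1 mean per group over 15 libraries, Benjamini-Hochberg adjustment over 8912 genes). DESeq2 1.42.0 served as an alternative. CVs, ratios and ranks were computed in Python 3.11.15 with pandas 2.3.3 and numpy 2.4.6. The test was tried on simulated counts. Counting CVs cover counting error only.

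The members, lists and tests were chosen with earlier results of these data known. Members are named by rules: the 5 lowest CVs, 3 genes on each side of the limit, the extremes of level and length, at most 2 called members per direction and comparison, the tightest and loosest pair, the 3 tightest to all others, and neighbouring numbers. The rule for members steady under all 4 scales found 0, so TrB0231W and the 4 members after it were chosen after their values were seen, as were the length classes.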

Additional observations from a re-analysis of the deposited data

Results flagged for a closer look

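In the 4 libraries of pph5-2, TrB0291W stood at 96.2 CPM in replicate 1 and between 91.7 and 92.2 CPM in the other 3, a gap of 0.892 of the group's range. In the 4 libraries of pp2A, TrD0733W stood at 151 CPM in replicate 1 and between 137 and 139 CPM in the other 3, a gap of 0.889 of the range. Such gaps exceed the 95% critical value for 4 values. They were looked for in 64 sets of 4 libraries, where chance alone gives about 1 in 20, or 3.2, and 2 were found. Between both DD1 deletion strains, edgeR called 64 members under TMM, all lower in pp2A than in pph5. Of all genes 33.8% were called, 19.6% as lower. Under library totals 1 member was called, as higher, where 29.5% of all genes were called higher. The members were chosen on library totals, so nothing is read from these counts.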

How the results depend on the processing

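The members depended most on the scale: of the 100, TMM kept 0, DESeq2 size factors 0, the upper quartile 25, ranking by log2 ratios to the window 4, the median absolute deviation over the median 49, DD1 libraries alone 60, DD3 libraries alone 30, libraries without pp2A 47, and the lowest worst CV over 4 scales 24, the last added after seeing the data. Leaving out 1 library kept 86 to 96, and the 8 other choices kept 68 to 99. Calls between pp2A and the DD1 parent (33) became 12 with the upper quartile, 0 with library totals and 0 scaled by the members, and 1 to 47 when 1 library was left out; those between pp2A and pph5 (64) became 30, 1 and 1, and 17 to 95. Leaving out a library also lowers the number of samples. It moved the number called over all genes between pp2A and the DD1 parent as well, so such moves are not particular to the members. The median log2 fold change turned to 0.026 and 0.027 under library totals. In the other 3 comparisons 0 members were called under each of the 23 alternatives. With a replicate block, 15 members were called between pp2A and the DD1 parent and 46 between pp2A and pph5. Same-numbered deviations correlated from -0.73 to 0.74 over the 5 comparisons, and 2 of 3 pph5 libraries correlated best with the pp2A library of their number, so the numbers were not taken to pair libraries. Where 1 library remained in a parent group, its spread was taken as that of the other groups. The steps from raw reads could not be varied, and counting error limits the ranking of the weaker members.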
